A study of Mus musculus with 8 samples.

Results

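The genes described here are 10 markers of the endothelial cells that line blood and lymphatic vessels: Pecam1, Cdh5, Kdr, Flt1, Flt4, Tek, Tie1, Cldn5, Lyve1 and Prox1. They are 10 of the 18193 genes that the array names and are read by 18 of its 45101 probe sets, namely every probe set that the platform annotation gives to 1 of these symbols alone. Flt1 has 4 probe sets, Prox1 has 3, Cdh5, Flt4 and Lyve1 have 2 each, and the other 5 genes have 1 each. The RNA came from corneas of mice that overexpress TGF-beta (4 arrays, called TGFB here) and of their wildtype litter mates (4 arrays). The labels name no TGF-beta isoform, promoter, expressing tissue, strain, sex or age, and they do not say whether an array holds 1 animal. The p-values are therefore about the variation from array to array, part of which may be technical. Values are linear signals as deposited or, where stated, log2(signal + 16), and differences are TGFB minus wildtype on that log2 scale, which understates the change of dim probe sets.

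The central cornea normally has no blood or lymphatic vessels, which keeps it clear. The vessels of the eye surface end in loops at the limbus, the rim where cornea meets sclera and conjunctiva, and they can grow inward after injury. Endothelial cells of all vessels are held together by the cadherin Cdh5 and the adhesion molecule Pecam1. VEGF ligands act on them through the receptor tyrosine kinases Flt1, Kdr and Flt4, and angiopoietins through Tek, with Tie1 as its partner receptor. The transcription factor Prox1 sets lymphatic identity, and Lyve1, a hyaluronan receptor, and Flt4 mark lymphatic vessels.

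No endothelial marker differed between TGFB and wildtype corneas past the threshold. Limma called 0 of the 18 probe sets at a Benjamini-Hochberg adjusted p under 0.05, and 0 of all 45037 probe sets tested (0%). The adjusted p of the 18 lay between 0.836 and 0.993. At an unadjusted p under 0.05, 1 member probe set was lower (Cldn5) and 1 was higher (the dimmer Flt4 probe set), where 3.16% of all probe sets were lower, 2.70% higher and 5.86% either. The groups did not overlap for 1 of the 18 probe sets, again Cldn5, which was lower in TGFB. Over all probe sets 3.28% did not overlap, and 1.81% were lower in this way. The mean was lower in TGFB for 11 of the 18 and higher for 7, and the mean was lower for 48.4% of all probe sets. The median difference was -0.077 over the 18 probe sets and 0.0090 over all. These counts therefore lie near the background of the whole table.

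**Figure D1:**
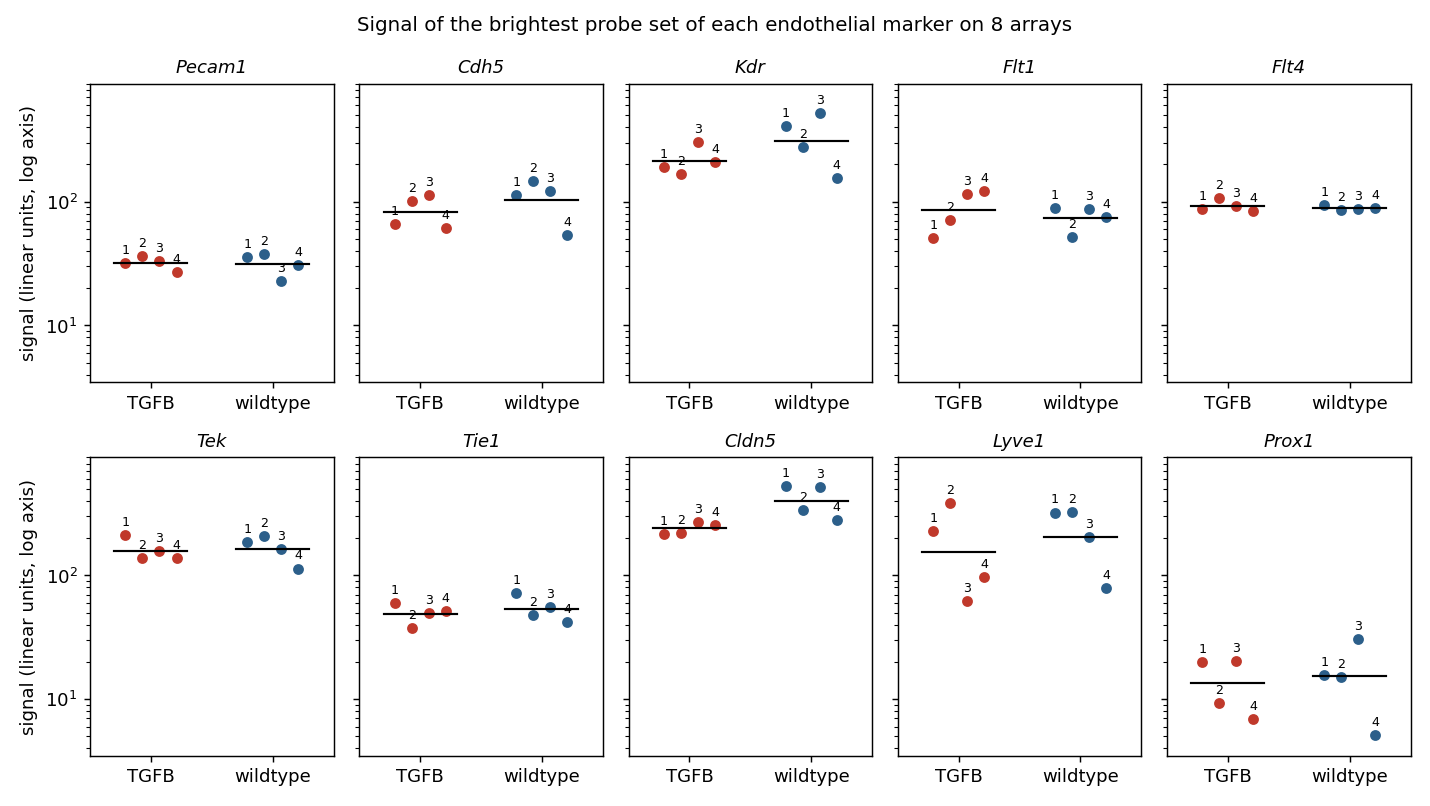
Signal (linear units, log axis) of the brightest probe set of each of the 10 genes on the 4 TGFB arrays (red) and the 4 wildtype arrays (blue). Numbers are array numbers and bars are the group means of log2(signal + 16) turned back to signals. Cldn5 is the gene of the 10 whose groups do not overlap (217 to 270 against 281 to 525), and Lyve1 has the widest range (62.0 to 385).

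The arrays also held transcripts that mark cell types other than corneal epithelium and stroma, and where these came from was not tested. Corneal markers were present on all 8 arrays, but unevenly. Krt12, the keratin of corneal epithelium, was at 289 on TGFB 1 and 562 on wildtype 4, against 3008 to 5766 elsewhere. Kera, a stromal proteoglycan, was at 2073 to 8110. From the same list, Dcn varied less, at 6078 to 10643. Aldh3a1 varied more, at 52.5 to 128 on the TGFB arrays, against 4060, 167, 315 and 70.5 on wildtype 1 to 4. The mean of 9 pigment cell markers (log2) was 7.66 to 9.29 on the TGFB arrays, against 9.20 to 11.50 on the wildtype arrays. Cornified epidermis markers were high in TGFB 1, TGFB 2 and wildtype 2. Wildtype 4 had the highest 3'/5' ratio of Gapdh, a measure that grows with RNA decay, at 6.41 against 2.19 to 4.31 elsewhere. The medians of the arrays lay between 26.3 and 34.4 signal units.

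Cldn5, the claudin that seals the tight junctions of endothelium, had the largest difference of the 18. On TGFB 1 to 4 its signals were 217, 219, 270 and 257, against 525, 335, 521 and 281 on wildtype 1 to 4. Every TGFB array was below every wildtype array, although TGFB 3 (270) and wildtype 4 (281) nearly met. On the log2 scale Cldn5 was 8.00 ± 0.15 in TGFB and 8.71 ± 0.44 in wildtype corneas (SD, n = 4 arrays each). The difference was -0.71 (SE 0.22, 95% interval -1.20 to -0.22), a ratio of 0.613, with a limma adjusted p of 0.836. The difference was thus not called. Whether it reflects cell number, RNA per cell or the cell types that carried the transcript was not tested, and whole corneas cannot tell these apart.

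Kdr, the main signalling receptor for VEGF-A, gave signals of 190, 166, 304 and 209 on the TGFB arrays, against 410, 275, 519 and 156 on the wildtype arrays. Wildtype 1 and wildtype 3 were the highest and wildtype 4 was the lowest of the 8, so the groups overlapped over their whole lower range. The means were 7.83 ± 0.35 and 8.35 ± 0.72, a difference of -0.52 (SE 0.34, 95% interval -1.29 to 0.25, limma adjusted p = 0.904). When wildtype 4, the array of highest Gapdh ratio, was left out, the difference was -0.83 for Kdr (limma adjusted p = 0.308) and -0.87 for Cldn5 (limma adjusted p = 0.208). With any 1 array left out, Kdr ran from that value to -0.28 (without wildtype 3) and Cldn5 to -0.58 (without wildtype 1).

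Cldn5 and Kdr had similar patterns across the arrays, though many other genes were closer to each of them. After each profile was set to mean 0 and SD 1, their root mean square difference was 0.49 SD units, where the median gene of 10817 lay 1.37 from Kdr. By this measure Cldn5 had rank 100 among the genes closest to Kdr, and Kdr had rank 218 among those closest to Cldn5. The genes closest to Cldn5 were the calcium sensor Ncald (0.11), the Nogo receptor relative Rtn4rl1 (0.11) and the transcription factor Myrf (0.16). All of them were highest in wildtype 1 and wildtype 3, Myrf at 324 and 254 against 17.1 to 87.6 elsewhere. The genes closest to Kdr were the anion exchanger Slc4a2 (0.29), the ubiquitin ligase Rnf128 (0.32) and Tspyl4 (0.33).

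The same 2 wildtype arrays held the most pigment cell transcripts. The mean of the 9 pigment cell markers was 11.50 in wildtype 1 and 10.89 in wildtype 3, followed by 9.92 in wildtype 2, 9.29 in TGFB 3, 9.20 in wildtype 4, 9.13 in TGFB 4, 8.56 in TGFB 2 and 7.66 in TGFB 1. Cldn5 gave that order of arrays except that TGFB 3 lay below wildtype 4. The pattern was not particular to pigment cells. In wildtype 1 and wildtype 3 the means of the retina markers (7.98 and 6.61) were also the highest of all arrays. The same held for the corneal epithelium and stroma markers (11.75 and 11.43), and both lists were lowest in TGFB 1 (5.38 and 10.31). In a fit with the mean of the pigment markers as a covariate, chosen after seeing the data, the Cldn5 difference was -0.13 (SE 0.21) and the Kdr difference was 0.36 (SE 0.34), both with a limma adjusted p of 1.00. The pigment list itself was lower in TGFB for 9 of 9 genes, with a median difference of -1.70 and a summed signal of 3479 to 15509 against 15076 to 34389, and none was at 0. The covariate and the group therefore cannot be told apart cleanly in 8 arrays.

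**Figure D2:**
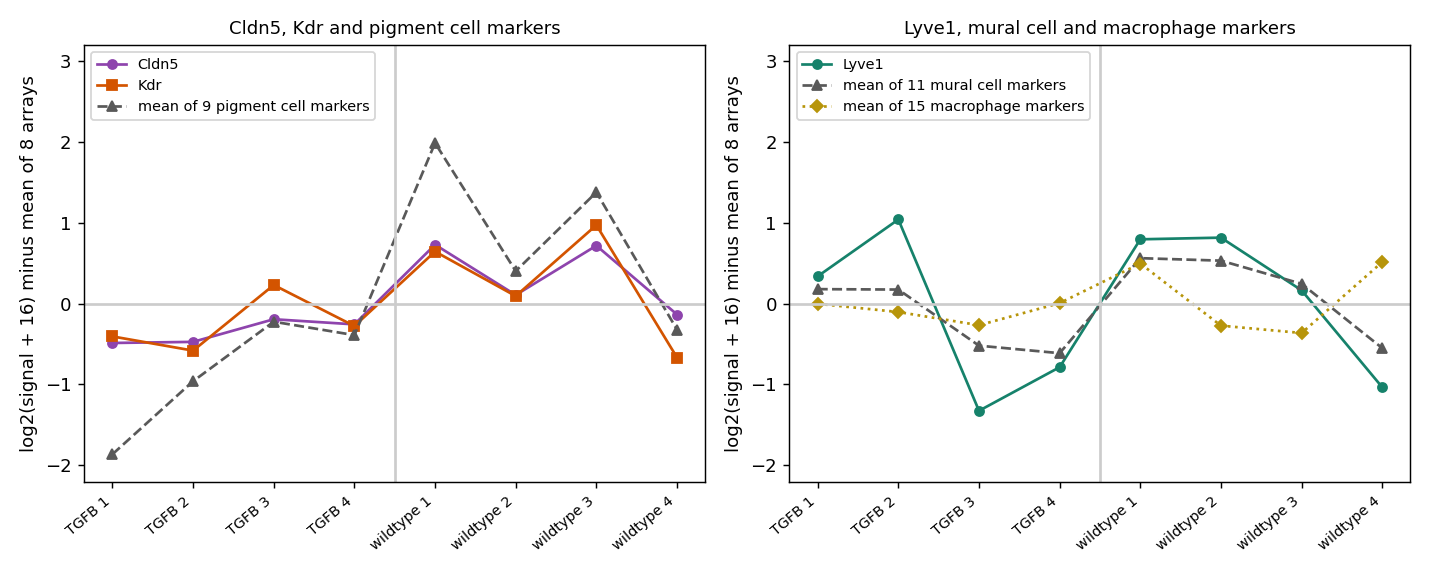
Log2(signal + 16) minus the mean of the 8 arrays, by array. Left, Cldn5, Kdr and the mean of 9 pigment cell markers all peak in wildtype 1 and wildtype 3, and right, Lyve1 and the mean of 11 mural cell markers are lowest in TGFB 3, TGFB 4 and wildtype 4, while the mean of 15 macrophage markers is highest in wildtype 4 and wildtype 1.

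For Cldn5 and Kdr the 250 bases before the transcription start are shown, from RefSeq on build GRCm38.p6. The letters of a GC box (GGGCGG or, on the other strand, CCGCCC) are in capitals, and a link between them and the array patterns was not tested. The Cldn5 stretch is chr16:18776597-18776846 on the + strand, and the Kdr stretch is chr5:75978456-75978705 on the - strand.
Cldn5: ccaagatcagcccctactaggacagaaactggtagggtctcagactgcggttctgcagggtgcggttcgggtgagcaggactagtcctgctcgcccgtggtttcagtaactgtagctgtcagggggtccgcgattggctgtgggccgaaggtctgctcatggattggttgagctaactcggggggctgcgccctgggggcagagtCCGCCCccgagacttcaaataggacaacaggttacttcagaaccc
Kdr: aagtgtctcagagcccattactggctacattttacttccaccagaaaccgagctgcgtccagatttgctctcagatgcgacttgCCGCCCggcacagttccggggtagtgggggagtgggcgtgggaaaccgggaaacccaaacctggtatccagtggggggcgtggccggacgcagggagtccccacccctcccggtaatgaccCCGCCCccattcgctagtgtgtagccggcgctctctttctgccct
The table of promoters, which spans 250 bases before to 50 after each start, gave 8 windows for 7 members: Prox1 (2 windows), Tek, Tie1, Kdr, Flt1, Flt4 and Cldn5. The GC box letters stood in 6 of the 8 windows, those of 5 genes, against 35.7% of all 32851 windows of this length. Those 6 windows were also rich in G and C, at 57.3 to 70.7% against a median of 52.7% over all windows. The letters CAGGAA (or TTCCTG), which hold the core that ETS factors of endothelial cells bind, stood in the windows of Tek (2 matches) and Tie1 (1 match) and in 30.6% of all windows. The longer AACAGGAA (or TTCCTGTT), which contains them, stood in 0 of the 8 windows and 2.65% of all. CAGACA (or TGTCTG), a sequence that SMAD proteins can bind, stood in 0 of the 8 and 21.04% of all. Shorter forms of these letters were not counted. A match is a description of letters and not of a bound site.

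Flt1, a VEGF receptor that also exists as a soluble decoy, was read by probe sets that went both ways. Its brightest probe set gave 51.0, 71.3, 115 and 123 on the TGFB arrays, against 89.1, 51.7, 86.6 and 74.8 on the wildtype arrays. TGFB 3 and TGFB 4 were the highest of all, and TGFB 1 and wildtype 2 the lowest. The means were 6.67 ± 0.50 and 6.50 ± 0.29, a difference of 0.17 (SE 0.26, limma adjusted p = 0.951). The other Flt1 probe sets gave 0.36 (SE 0.32), 0.14 (SE 0.19) and -0.19 (SE 0.23). On the first of these TGFB 4 reached 87.3 and TGFB 2 only 15.98, with wildtype arrays at 22.2 to 38.2. Without TGFB 1, TGFB 2 and wildtype 2, the arrays with cornified transcripts, that difference was 0.80 (limma adjusted p = 0.987), with 2 arrays left in the TGFB group, and without TGFB 4 it was 0.087. The difference of the brightest probe set was 0.021 without TGFB 4, 0.034 without wildtype 2, 0.049 without TGFB 3 and 0.37 without TGFB 1. Myo1d, Pgap4 and Gtpbp10 had the patterns closest to the brightest probe set (0.26, 0.32 and 0.34 SD units).

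Tek, the angiopoietin receptor, gave 213, 138, 157 and 137 on the TGFB arrays, against 187, 207, 163 and 114 on the wildtype arrays. TGFB 1 and wildtype 2 were highest and wildtype 4 lowest, and the groups overlapped. The means were 7.45 ± 0.27 and 7.49 ± 0.34, a difference of -0.043 (SE 0.21, 95% interval -0.51 to 0.43, limma adjusted p = 0.989). Its closest genes were the carnitine acetyltransferase Crat (0.13), Herpud2 (0.17) and the actin regulator Cap2 (0.19). Tie1, its partner, was dimmer, at 59.6, 37.9, 49.96 and 51.5 against 72.0, 47.7, 55.2 and 42.2, with the highest signal in wildtype 1 and the lowest in TGFB 2. Its means were 6.03 ± 0.20 and 6.12 ± 0.26, a difference of -0.089 (SE 0.17, 95% interval -0.48 to 0.30, limma adjusted p = 0.963).

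The junction genes shared by all vessels also overlapped. The brighter Cdh5 probe set (VE-cadherin) gave 66.4, 101, 112 and 61.3 on the TGFB arrays, against 112, 146, 123 and 54.1 on the wildtype arrays. Wildtype 4 was again the lowest array and wildtype 2 the highest. The difference was -0.27 (SE 0.28, 95% interval -0.91 to 0.36, limma adjusted p = 0.927), and it ran from -0.53 without wildtype 4 (limma adjusted p = 0.4003) to -0.13 without wildtype 2 when 1 array was left out, with -0.15 without TGFB 4. The second Cdh5 probe set lay below the array median on all 8 arrays, at 6.82 to 23.3, with a difference of -0.13 (SE 0.19). Pecam1 was dim, at 31.9, 36.5, 32.98 and 27.2 against 35.7, 37.5, 22.7 and 31.0, and below the array median on 4 of 8 arrays. Its difference was 0.020 (SE 0.15, 95% interval -0.31 to 0.35, limma adjusted p = 0.993), the smallest in size of the 18. Its sign turned with quantile normalization and with median centring.

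**Figure D3:**
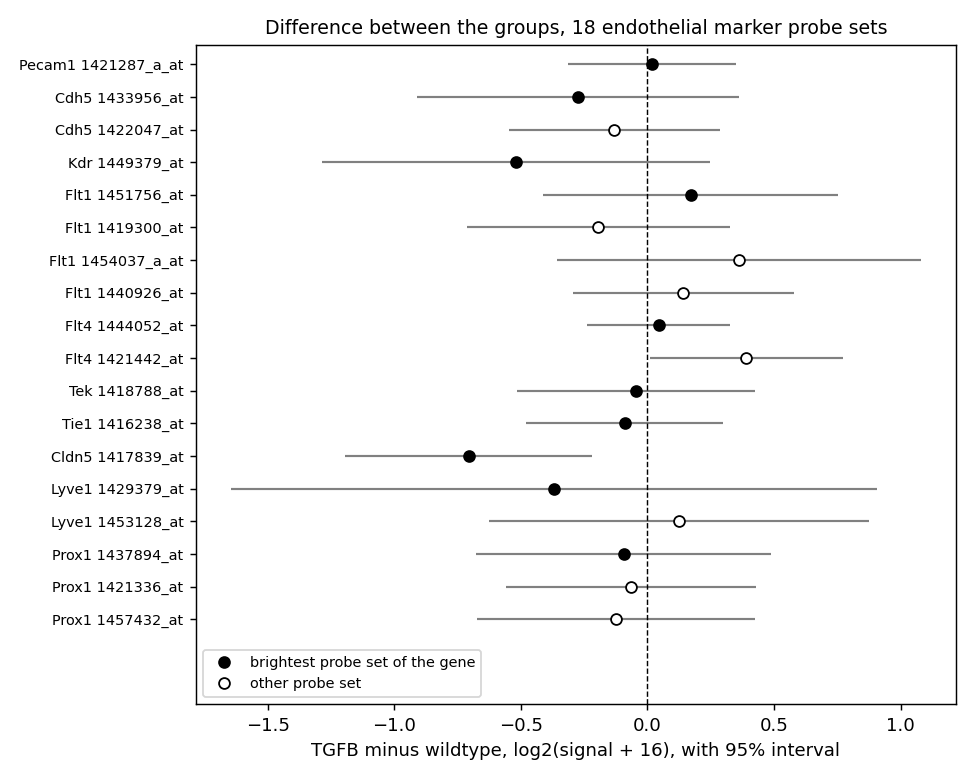
Difference TGFB minus wildtype on the log2(signal + 16) scale with its 95% interval from limma for the 18 probe sets, filled for the brightest probe set of a gene. Intervals that leave out 0 belong to Cldn5 (-0.71) and the dimmer Flt4 probe set (0.39), before adjustment over all probe sets.

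Of the lymphatic markers, Lyve1 varied most and did so within both groups. Its brighter probe set gave 231, 385, 62.0 and 97.3 in TGFB 1 to 4 and 323, 328, 203 and 79.3 in wildtype 1 to 4. TGFB 3, TGFB 4 and wildtype 4 were low and the other 5 arrays were high, a split that cuts across the groups. The means were 7.43 ± 1.07 and 7.79 ± 0.87, a difference of -0.37 (SE 0.57, 95% interval -1.65 to 0.91, limma adjusted p = 0.952). The second Lyve1 probe set had signals of 91.6, 182, 62.6 and 52.7 against 116, 73.8, 82.6 and 53.9, with a difference of 0.12 (SE 0.33). On that probe set TGFB 4 and wildtype 4 were lowest, and TGFB 2 was highest on both. Without TGFB 1, TGFB 2 and wildtype 2 the differences were -1.03 and -0.40, and without TGFB 3 the first was 0.012, so the value rests on which arrays are taken.

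Many genes shared the 3 low arrays of Lyve1. These arrays were the lowest 3 for 4 of the 45 other blood endothelial genes (among them Vwf, Sox18 and Ramp2), 3 of the 15 other lymphatic genes (among them Nrp2 and Tbx1) and 4 of the 11 mural cell markers, and for 9.19% of all 18193 genes. Vwf, a clotting factor carrier of endothelium, gave 177, 171 and 176 on them against 307 to 487 elsewhere, and the lymphatic gene Tbx1 39.3, 40.5 and 28.7 against 47.6 to 123. The mean of 10 skeletal muscle markers (log2) was also lowest there, at 8.99, 8.48 and 8.58 against 9.11 to 10.67. The mean of 11 mural cell markers (log2), genes of the pericytes and smooth muscle around vessels, was 7.38 in TGFB 3, 7.29 in TGFB 4 and 7.35 in wildtype 4 and 8.08 to 8.47 on the other 5 arrays. The same arrays were low in Pf4, a chemokine of platelets and some macrophages, at 504, 517 and 489 against 1051 to 1260. Ppbp, from the same list of platelet and red cell markers, was high there instead, at 2395, 2555 and 1037 against 22.6 to 193. These arrays were the lowest 3 for 1 of the 7 measured genes of that list. Lyve1 is also made by some tissue macrophages. The mean of the 15 macrophage markers lay between 7.02 and 7.29 on the TGFB arrays, against 6.92 to 7.80 on the wildtype arrays. Wildtype 4, where Lyve1 was low, had the highest mean. Single genes of the list differed from that mean. For 1 of the 15, Folr2, the 3 low arrays of Lyve1 were the lowest, at 34.4, 43.5 and 43.3 against 45.7 to 101 elsewhere. The macrophage list summed to 2941 to 4045 signal units on the TGFB arrays, against 3131 to 6615 on the wildtype arrays, with 6 of 15 members higher, 9 lower and none at 0. The part of these cells in the Lyve1 pattern was not tested. The genes closest to Lyve1 were Tbc1d5 (0.11), Arhgap1 (0.16) and Tmem97 (0.16 SD units).

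Flt4 did not share the split of Lyve1. Its brighter probe set (VEGFR3, the receptor of VEGF-C) was almost flat, at 87.0, 107, 92.9 and 83.7 against 94.1, 86.0, 87.5 and 88.9. Its difference was 0.044 (SE 0.12, 95% interval -0.24 to 0.33, limma adjusted p = 0.979). The second Flt4 probe set gave 18.6, 26.8, 18.9 and 25.0 against 8.19, 21.4, 14.1 and 10.4. It lay below the array median on all 8 arrays, and wildtype 2 reached into the TGFB range. Its difference was 0.39 (SE 0.17, 95% interval 0.0088 to 0.77, limma adjusted p = 0.845).

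Prox1 was near the floor of the array on all 3 of its probe sets. Each lay below the array median on all 8 arrays, with signals of 5.18 to 30.7, 1.41 to 13.7 and 1.19 to 17.5. The brightest gave 19.9, 9.31, 20.3 and 6.88 on the TGFB arrays, against 15.6, 15.2, 30.7 and 5.18 on the wildtype arrays. Prox1 is also a known factor of lens fibre cells. The mean of 14 lens markers was highest in wildtype 3 (10.52), where the brightest Prox1 probe set was also highest. It was next highest in TGFB 4 (9.62), where that probe set gave 6.88, and lowest in TGFB 1 (4.68), where it gave 19.9. The second probe set gave 9.31 in wildtype 3, 11.5 in TGFB 4 and 1.41 in TGFB 1. The third gave 17.5, 1.75 and 6.93 on these arrays, so the comparison depends on the probe set. The part of lens tissue was not tested. The 3 differences were -0.094, -0.064 and -0.12 (SE 0.26, 0.22 and 0.24), and none was called.

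Other genes of blood and lymphatic endothelium were read from lists. Of 46 further blood endothelial genes 45 were measured, of which 20 had a higher and 25 a lower mean in TGFB, with a median difference of -0.039. Limma called 0 of them, and 1 higher and 4 lower genes had an unadjusted p under 0.05, where 2.69% of all 18193 genes, each read by its brightest probe set, were higher and 4.54% lower. Their summed signal ran from 10402 to 10924 on the TGFB arrays, against 9880 to 14879 on the wildtype arrays, with the highest sum in wildtype 1. Tmem100, an endothelial target of BMP9 signalling, had signals of 87.5, 67.8, 60.4 and 52.1 against 227, 192, 175 and 63.9. Wildtype 1, 2 and 3 stood above all TGFB arrays and wildtype 4 among them, with a difference of -1.02 (SE 0.33, limma adjusted p = 0.837). Nr2f2, the factor of venous identity, gave the same order of groups (-0.81, SE 0.31), as did the sialomucin Emcn of veins and capillaries (-0.54, SE 0.21). Mcam, an adhesion molecule of endothelium and pericytes, had the opposite sign, at 235, 195, 269 and 273 against 198, 189, 121 and 85.3 (0.71, SE 0.25). Their adjusted p was 0.837 each in limma.

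Of 16 further lymphatic genes 15 were measured, 9 with a higher and 6 with a lower mean, a median difference of 0.062 and 0 calls, also at an unadjusted p under 0.05. The secreted protein Reln had the smallest p of them, with signals of 164, 375, 845 and 1076 against 1470, 592, 1628 and 698 (-1.0005, SE 0.57). The scavenger receptor Stab2 gave 0.33 (SE 0.19), the integrin chain Itga9 -0.33 (SE 0.21) and the factor Tbx1 0.51 (SE 0.34). The adjusted p of these 4 genes in limma lay between 0.892 and 0.905.

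Ligands and co-receptors of the marker receptors were compared next. Of 14 genes, all measured, 6 had a higher and 8 a lower mean, with a median difference of -0.11. Limma called 0, and 2 of the 14 were lower at an unadjusted p under 0.05, beside 4.54% of all genes. Placental growth factor Pgf, a ligand of Flt1, had signals of 63.9, 49.2, 51.3 and 72.1 against 188, 106, 130 and 67.7. Wildtype 1, 2 and 3 were above all TGFB arrays, and wildtype 4 lay within them (-0.82, SE 0.26, adjusted p = 0.837). Angpt1, which activates Tek, gave 87.7, 43.9, 135 and 117 against 186, 122, 180 and 176, so that wildtype 2 was the one array within the TGFB range (-0.77, SE 0.28, adjusted p = 0.837). Vegfb had a difference of -0.50 (SE 0.24) and Svep1, a partner in lymphatic growth, one of -0.45 (SE 0.23).

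**Figure D4:**
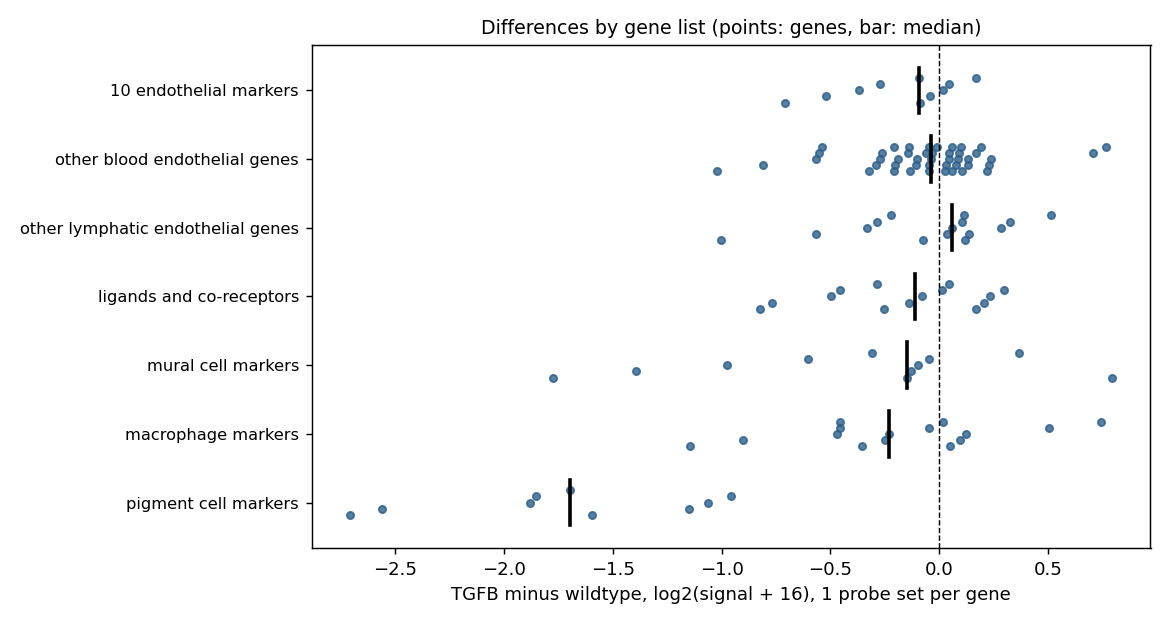
Difference TGFB minus wildtype on the log2(signal + 16) scale for each gene (point, 1 probe set per gene) of 7 lists, with the median of each list as a bar. The 10 endothelial markers (-0.091), the other blood (-0.039) and lymphatic (0.062) endothelial genes and the ligands and co-receptors (-0.11) lie around 0. The mural cell markers lie at -0.15, the macrophage markers at -0.23 and the pigment cell markers at -1.70.

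Mural cells, which wrap the vessels, had 2 of 11 markers higher and 9 lower, with a median of -0.15 and a summed signal of 2978 to 4324 against 3872 to 6425. Limma called 0 of them, and 1 higher and 2 lower genes had an unadjusted p under 0.05, beside 2.69% and 4.54% of all genes. The proteoglycan Cspg4 (NG2), a pericyte marker, gave 238, 254, 247 and 189 on the TGFB arrays, against 173, 176, 180 and 172 on the wildtype arrays, without overlap, where 1.47% of all probe sets lay higher in TGFB in this way. Its difference was 0.37 (SE 0.13, limma adjusted p = 0.837). The pericyte gene Rgs5 went the other way, at 765, 1051, 463 and 336 against 2472, 896, 1008 and 893 (-0.98, SE 0.42), as did the smooth muscle genes Cnn1 (-1.40, SE 0.54) and Myh11 (-1.78, SE 0.81).

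The remaining tissue lists stand as values beside these results. In lens markers 0 of 14 were higher and 14 lower (median -1.01), in retina markers 1 and 11 (median -0.78), and in skeletal muscle markers 0 and 10 (median -0.22). Cornified epidermis markers were higher for 7 of 7 (median 1.63). Platelet and red cell markers were higher for 5 and lower for 2 (median 0.016), and the corneal epithelium and stroma markers higher for 1 and lower for 8 (median -0.34). Limma called 0 genes of these lists or of the pigment cell and macrophage lists. At an unadjusted p under 0.05 in limma, 7 of 9 pigment cell, 2 of 15 macrophage, 2 of 12 retina and 1 of 10 skeletal muscle markers were lower. That stands beside 4.54% of all genes, and 0 genes of any of these lists were higher at that threshold. The part of these lists in the endothelial values was not tested.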

How the data were processed

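RNA of 8 mouse corneas' samples was measured on one-colour Affymetrix-type arrays, 4 per group. The deposited table holds linear intensities per probe set. The sources used here do not state the authors' software or scaling. On every array the deposited intensities have a 2% trimmed mean of 150.001, so no further normalization was applied, and 0 columns of values were left unused. The number of arrays limits the precision. Probe sets were named from a platform annotation of 2016: 34945 had 1 symbol, 932 several, and 9160 stayed unnamed. All 10 member genes matched a RefSeq gene table (GRCm38.p6) by Entrez ID.

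After log2(signal + 16), limma 3.58.1 in R 4.3.3 (lmFit, eBayes, 9.22 degrees of freedom) compared the groups over 45037 probe sets without the 64 control probe sets, with Benjamini-Hochberg adjustment over all. Every probe set was its own unit. A gene of a list was read by its brightest probe set. The fit was also run on simulated data with changes larger than any member difference, added only to brighter probe sets. That run does not show whether differences of the size seen in the members would be called. Genes with the most similar pattern were chosen by the root mean square difference of standardised values among 10817 genes with a mean log2 of at least 6. From each of the endothelial, ligand and mural lists, up to 4 genes with the smallest p were named. A gene named otherwise (Pf4, Ppbp, Krt12, Kera, Dcn, Aldh3a1, Folr2, Vwf, Sox18, Ramp2, Nrp2) was chosen after its values were seen. The members and lists were chosen with earlier results of these data known. Figures were drawn with matplotlib 3.10.9.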

Additional observations from a re-analysis of the deposited data

How the results depend on the processing

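No paired analysis was possible because the labels give the groups no shared replicate numbers. Over the 19 other settings, Cldn5 stayed lower in TGFB in each, from -0.87 without wildtype 4 to -0.13 with the pigment covariate, and 0 member probe sets were called in any (smallest adjusted p 0.208). Limma's calls over all probe sets ran from 0 to 2 when 1 array was left out, the 2 without wildtype 4. At an unadjusted p under 0.05 that setting gave 2603 lower and 2646 higher probe sets, array weights 2250 and 2191, the pigment covariate 825 and 795, median centring 1634 and 900, and the setting reported 1423 and 1218. Of 329 values of single member probe sets 36 changed sign (20 of them with 1 array left out), and the cause was not tested.

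With the pigment covariate the sign turned for Kdr (0.36), the brighter Cdh5 probe set (0.18), the Flt1 probe set with the negative difference (0.12), Pecam1 (-0.030), the second Prox1 probe set (0.27) and the brightest Prox1 (0.17), Tek (0.0058) and Tie1 (0.13). Without the 3 arrays with cornified transcripts it turned for the Flt1 probe set with the negative difference (0.11), the brighter Flt4 (-0.026) and the dimmer Lyve1 probe set (-0.40). Array weights turned Pecam1 (-0.015), the second Prox1 probe set (0.076) and the third (0.0055), quantile normalization Pecam1 (-0.012) and median centring Pecam1 (-0.0092).

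With 1 array left out, sign changes lay in these ranges: the dimmer Cdh5 -0.23 to 0.026, the Flt1 probe set with the negative difference -0.32 to 0.031, the brighter Flt4 -0.018 to 0.084, the brighter Lyve1 -0.78 to 0.012 (above 0 without TGFB 3), the dimmer Lyve1 -0.19 to 0.32, Pecam1 -0.077 to 0.078, the second Prox1 -0.23 to 0.091, the brightest Prox1 -0.28 to 0.097 and the third -0.29 to 0.034, Tek -0.20 to 0.060 and Tie1 -0.17 to 0.025. For probe sets below the array median on all 8 arrays, all 3 of Prox1 among them, low expression and background cannot be told apart here.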
